A study of Danio rerio with 14 samples.

Results

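klf9 and fkbp5 are 2 genes that glucocorticoid hormones switch on in many vertebrate tissues, and their transcript levels were followed over the day in the zebrafish pineal gland. They were chosen by gene symbol, as the probe sets whose single symbol in the platform annotation is klf9 or fkbp5, and were selected on their signals by time of day and light condition, which were already known. Each gene had 1 probe set, so 2 of the 15617 probe sets on the array and 2 of its 8793 named genes are described. Because the choice used these signals, the levels, rhythms and LD to DD differences of both genes are given as a description, with no test.

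The glands came from adult Tg(aanat2:EGFP)Y8 zebrafish of 3 to 6 months, males and females, in which EGFP marks the pineal gland. All fish were raised at 28 °C under 12 h of light and 12 h of darkness. Every sample, in both conditions, is recorded with the anaesthetic tricaine at 1.5 mM. During the cycle of collection one group stayed in that cycle (LD, 7 arrays) and the other was kept in constant darkness (DD, 7 arrays). Glands were taken every 4 h from ZT2 to ZT22, in hours of zeitgeber time (ZT) after the lights came on in LD. A further collection in each condition bears the name ZT2b with no explanation in the labels, and it was treated as a repeat of ZT2. The RNA on an array came from 12 pooled glands, so a time and condition had a single pool except at ZT2, and a difference between 2 arrays has no replicate error of its own. The aanat2 promoter of the transgene marked the gland for dissection and did not sort single cells. Fewer cells of a type and less RNA per cell cannot be told apart in any value below.

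Glucocorticoids, of which cortisol is the main one in fish, act through the receptor encoded by nr3c1. Without hormone the receptor rests in a complex with the chaperone Hsp90 and with immunophilins, and with hormone it enters the nucleus and binds DNA. fkbp5 encodes FKBP51, an immunophilin of that complex which lowers the receptor's affinity for hormone, and its gene is itself induced by the receptor, a short negative feedback loop. klf9 encodes a Krüppel-like zinc finger factor that mostly represses its targets and is induced by glucocorticoids and, in several vertebrates, by thyroid hormone. The pineal gland makes melatonin at night, holds its own clock and senses light directly. No hormone was measured in these samples.

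Pineal markers were present: the photopigment gene exorh had a mean signal of 12290 in LD and 11150 in DD, and all 5 pineal markers on the array passed the filter on dim probe sets. The deposited signals had a common scale, with a trimmed mean of 150.04 to 150.05 on the 14 arrays. The DD array of ZT10 stood apart, with a mean correlation of 0.938 with the other DD arrays against 0.956 to 0.965 for the other 13 arrays within their condition, and a geometric mean of 839.3 for the poly-A spikes, RNAs added before amplification, against 59.9 to 149.8. For klf9 and fkbp5 the range in DD, the size and share of the DD wave and LD minus DD are given with and without it; a value at ZT10 in DD comes from that array alone. The labels name no batch, and if LD and DD arrays were run separately, light condition and batch cannot be told apart.

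In the light-dark cycle klf9 was lowest late in the day and highest late in the night. Its MAS5 signal, a linear intensity per probe set, was 277.1 at ZT2, 186.1 at ZT6, 106.5 at ZT10, 169.8 at ZT14, 449.7 at ZT18, 1330.2 at ZT22 and 450 at ZT2b. The array of ZT22 was 12.5 times that of ZT10, the highest array was 4.23 times the lowest when ZT22 was left out and 7.83 times when ZT10 was, and the 3 arrays with the highest signals were those of ZT22, ZT2b and ZT18. Between ZT14 and ZT18 the level was 2.65 times higher and between ZT18 and ZT22 a further 2.96 times.

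In constant darkness klf9 was again lowest at ZT10, though only 1.11 times below ZT6, and covered a narrower range. The signal was 563.8 at ZT2, 232.9 at ZT6, 209.9 at ZT10, 328.5 at ZT14, 667.6 at ZT18, 513.4 at ZT22 and 581 at ZT2b. The highest array, ZT18, was 3.18 times the lowest, and 2.87 times without the array of ZT10. The 4 arrays between ZT18 and ZT2b were within 513.4 and 667.6, and the 3 of ZT6, ZT10 and ZT14 all lay below them.

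fkbp5 was also lowest on the arrays of ZT10, but in LD that of ZT14 was only 1.02 times higher. In LD its signal was 553.7 at ZT2, 486.7 at ZT6, 152.8 at ZT10, 156.2 at ZT14, 347.2 at ZT18, 861.7 at ZT22 and 810.9 at ZT2b. The level at ZT22 was 5.64 times that at ZT10. At ZT6 fkbp5 was 1.14 times below the ZT2 pool but further below the ZT2b pool, and it was 3.19 times lower 4 h later. klf9 in LD was 1.49 times lower at ZT6 than at ZT2. These 2 steps differed by less than the ZT2 and ZT2b pools of either gene in LD, so a later fall of fkbp5 is not shown. In DD both genes were lower at ZT6 than at ZT2, klf9 by 2.42 times and fkbp5 by 1.94 times.

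In DD fkbp5 had 801.6 at ZT2, 413.9 at ZT6, 185.4 at ZT10, 311.6 at ZT14, 738.4 at ZT18, 367 at ZT22 and 606.4 at ZT2b. The highest value was 4.32 times the lowest, and 2.57 times when the array of ZT10 was left out. The array of ZT22 lay 2.01 times below that of ZT18 and under that of ZT2, so the high levels of night and early morning in DD were interrupted at ZT22, in a single pool. klf9 was also lower on that array than at ZT18, by 1.3 times.

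**Figure D1:**
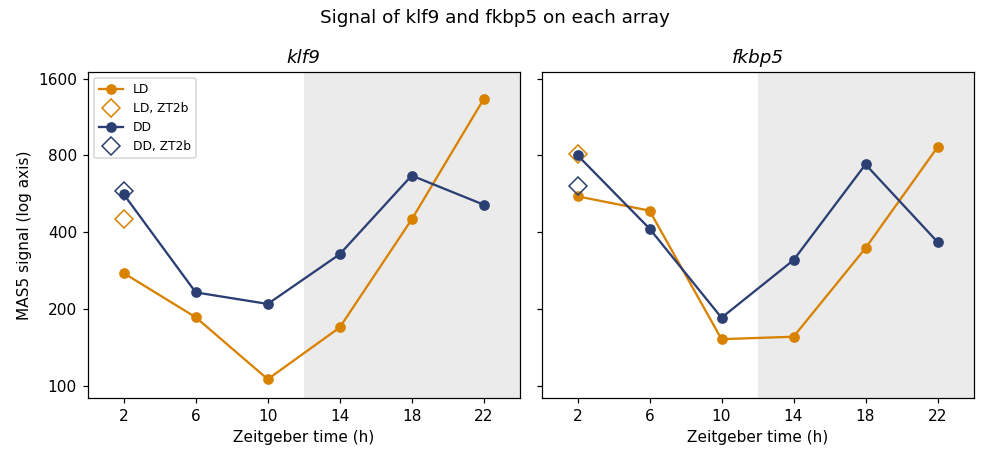
MAS5 signal (log axis) of klf9 (left) and fkbp5 (right) against zeitgeber time in hours, a point for each array, with LD in orange, DD in blue, and open diamonds for the ZT2b collection; grey marks the dark phase of the LD cycle. Both genes were lowest at ZT10 in both conditions, with fkbp5 in LD nearly as low at ZT14. The LD array of ZT22 was the highest LD array of each, at 1330.2 and 861.7.

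Fitting a wave of 24 h over all 14 arrays, with light condition as a term, gave each gene a size and a peak time. Signals were first transformed as log2(signal + 14.9), a scale that understates changes of dim probe sets. For klf9 the distance from trough to peak was 2.31 ± 0.32 (log2, SE), or 4.95-fold, with a peak at ZT21.5. For fkbp5 it was 1.88 ± 0.32, or 3.67-fold, with a peak at ZT23.7. The median over all 6116 genes tested was 0.34, a size that cannot be below 0. limma with Benjamini-Hochberg adjustment called 4.91% of the 6116 genes rhythmic. klf9 and fkbp5 are among the 6116, and no call is given for them because rhythms were part of their choice.

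The wave was larger in LD than in DD for both genes. This was not particular to them. Of a fixed list of clock genes, every tested gene except clocka also had the larger wave in LD. Examples are ciarta (5.58 in LD and 3.97 in DD) and bmal1a (3.36 and 1.89). klf9 had 2.95 ± 0.41 in LD with a peak at ZT21.6, and 1.66 ± 0.41 in DD with a peak at ZT21.4. fkbp5 had 2.42 ± 0.42 in LD with a peak at ZT0.187 and 1.38 ± 0.44 in DD with a peak at ZT22.9. The fitted peaks of klf9 thus lay 0.21 h apart, and that of fkbp5 was 1.3 h earlier in DD. Omitting single DD arrays moved the DD peaks by more than these differences. That of klf9 was then at ZT21.0 to ZT21.9, and that of fkbp5 at ZT22.2 to ZT1.1. The latest, without the DD array of ZT18, fell after the LD peak of fkbp5, so neither difference was firm.

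Single arrays carried part of these sizes. Without the LD array of ZT22 the size of klf9 in LD was 2.26 ± 0.40, with a peak at ZT21.7. Without the DD array of ZT10, which stood apart, the size of fkbp5 in DD was 0.82 ± 0.51, and without the DD array of ZT22 it was 2.24 ± 0.38. klf9 in DD had 1.60 ± 0.53 and 2.14 ± 0.47 under the same omissions. Whether the wave differed between conditions was tested over all probe sets, and limma called 0 of the 6116 genes (0%), with 440 at an unadjusted p under 0.05, so the spread of these arrays did not separate the LD and DD waves of any gene.

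A wave described fkbp5 least well in DD. It took up 51.7% of the variance of its log2 signal there, against 92.7% in LD, and for klf9 86.5% in LD and 84.5% in DD. Without the DD array of ZT10 the shares in DD were 25.4% for fkbp5 and 75.3% for klf9, and without that of ZT22 they were 92.6% and 98.5%. The largest departure of fkbp5 in DD was at ZT22, with a residual of -0.86 (log2). In LD klf9 had a residual of 0.67 at ZT22 and -0.67 at ZT2, where the ZT2b pool had 0.004.

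The pair of pools at ZT2 gives the only repeat within a condition. klf9 differed between ZT2b and ZT2 by 0.67 (log2) in LD and 0.04 in DD. fkbp5 differed by 0.54 in LD, and in DD its ZT2b value was lower by 0.39 (-0.39). The median absolute difference between these 2 arrays over all probe sets tested was 0.22 in LD and 0.23 in DD, and the 95th percentile 0.81 and 0.86. The repeats of klf9 in LD were thus further apart than those of 91.7% of probe sets. The differences of both genes were smaller than their fitted trough-to-peak distances. Nothing is read from that, because both genes were chosen with their rhythms known.

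The means of LD and DD over the 7 collections were close, but the medians of klf9 were not. For klf9 the LD mean was 424.2 ± 421.5 and the DD mean 442.4 ± 182.9 (SD, 7 arrays each). For fkbp5 they were 481.3 ± 285.8 and 489.2 ± 230.2. The medians were 277.1 in LD and 513.4 in DD for klf9, and 486.7 and 413.9 for fkbp5. The LD mean of klf9 holds the single array of ZT22, at 1330.2. The ranges of LD and DD overlapped for both. Fitted with collection time as a block, LD minus DD was -0.38 ± 0.23 for klf9 and -0.13 ± 0.23 for fkbp5 (log2, SE), and -0.29 ± 0.25 and -0.11 ± 0.25 when the DD array of ZT10 was left out.

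The average hid a crossing late in the night. klf9 was lower in LD in 6 of 7 collections: DD was 2.04 times LD at ZT2, 1.97 times at ZT10 and 1.94 times at ZT14. In the repeat of ZT2, ZT2b, DD was only 1.29 times LD. At ZT22 the order was turned and LD was 2.59 times DD. With either array of ZT22 left out, LD minus DD of klf9 was -0.66 ± 0.15, the lowest value among the omissions of single arrays (-0.66 to -0.28). That omission takes out the only collection of opposite sign. The larger difference and smaller SE follow from it and are no firmer estimate.

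fkbp5 was lower in LD in 4 of 7 collections. DD was 2 times LD at ZT14 and 2.13 times at ZT18, and at ZT22 LD was 2.35 times DD. LD was also the higher at ZT6, by 1.18 times. The repeated time did not keep its direction: DD was 1.45 times LD at ZT2, and LD was 1.34 times DD at ZT2b. At ZT22 the central 95% of the 6116 genes lay between -1.32 and 1.09 (log2, LD minus DD), with klf9 at 1.35 and fkbp5 at 1.2. Both were above that range only at this collection and were below it at none. By its definition the range leaves some genes above it at every collection. Both genes were chosen with these signals known, so their place is a description. Some clock genes were likewise higher in LD than in DD at ZT22. They included bhlhe41 (5219.2 and 987.8), bhlhe40 (4353.6 and 896.5), tefa (1436.2 and 430.1) and ciarta (994 and 324.8). Other clock genes were lower in LD there, among them per2 (70.6 and 286.3) and bmal1a (4.3 and 48.9).

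**Figure D2:**
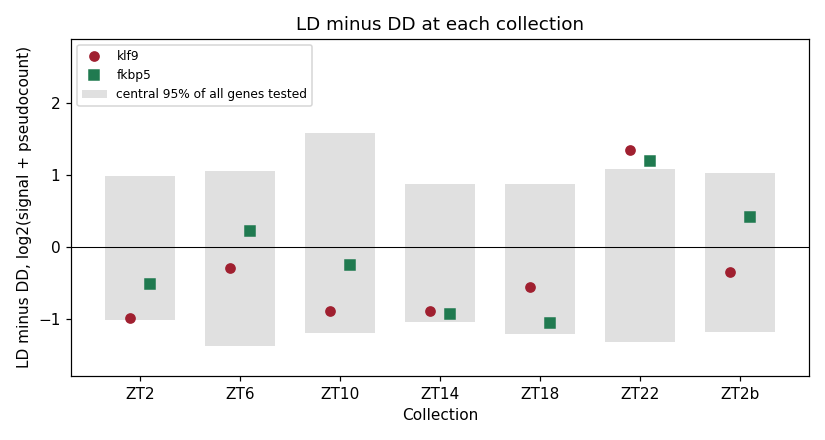
LD minus DD of klf9 (red circles) and fkbp5 (green squares) at each of the 7 collections, in log2(signal + pseudocount); grey bars span the central 95% of the 6116 genes tested at that collection. The 2 genes were above the bar at ZT22, at 1.35 and 1.2, and within it at the other 6 collections.

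The ZT22 pools of the 2 conditions differed in other ways too, several of which were not particular to that time. The LD array of ZT22 had the highest geometric mean of the hybridisation spikes of all arrays, 652.8 against 451.7 on the DD array of ZT22. The summed signal of the 5 pineal markers was 36687 in LD and 25453.9 in DD at that time, and that of the 4 red cell markers 7560.8 and 15497.3. Sums of vessel markers were 261.3 and 469.6, and those of leukocyte markers 325.4 and 762.7. Skin and connective tissue markers summed to 4004.4 and 2491.2. The hybridisation spikes had a median of 520.3 over the LD arrays and 384.9 over the DD arrays. Pineal sums were lower in LD only at ZT2 and ZT2b, and red cell sums were higher in LD only at ZT2 and ZT14. Leukocyte sums were higher in LD only at ZT10 and ZT14. The pineal sum mixes time of day with pineal content, since 1 of its genes, aanat2, was called rhythmic (peak at ZT19.1, adjusted p = 0.024, limma). At ZT22 aanat2 had 12482.3 in LD and 10142.9 in DD, tph1a 9148.5 and 4858.7, and exorh 13924.9 and 9489.2. The part of these differences in the values of klf9 and fkbp5 was not tested.

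The 2 genes followed each other from array to array. Pearson's r of their log2 signals was 0.78 over the 14 arrays (Spearman's rho 0.785), 0.776 within LD and 0.818 within DD (7 arrays each). It was 0.671 without the LD arrays of ZT22 and ZT10, the 2 farthest from the median of klf9, and 0.771 without the DD array of ZT10. All arrays share their times of day, and both genes were chosen for their daily pattern, so the correlation is a description and has no p. fkbp5 ranked 18th of 6115 genes by r with klf9, and klf9 15th by r with fkbp5.

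**Figure D3:**
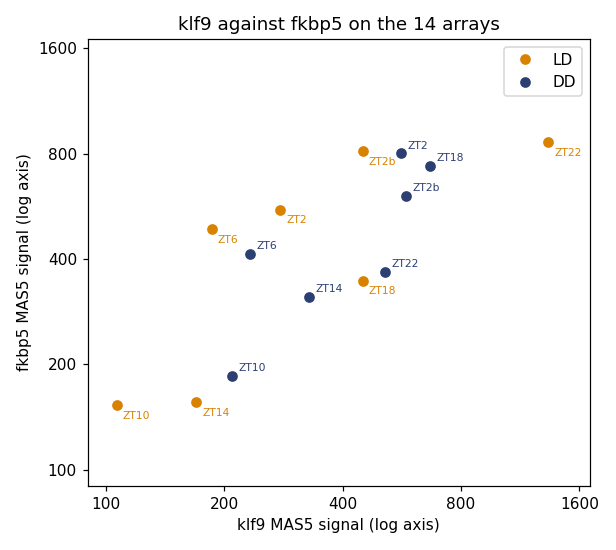
Signal of fkbp5 against klf9 on each of the 14 arrays (both axes MAS5 signal, log scale), LD in orange and DD in blue, labelled by collection. Arrays of ZT10 and the LD array of ZT14 lie at the low end of both genes, and the LD array of ZT22, at 1330.2 for klf9, is the array farthest to the right.

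The gene most like klf9 was thraa, a thyroid hormone receptor gene, with r = 0.914 over 14 arrays and signals of 177.5 to 739.9. It was followed by pik3r3a, a regulatory subunit of PI3-kinase (0.885), ppdpfa (0.868), grtp1a (0.853) and anxa13, of the annexin family (0.853). Lowest were waca (-0.887), the clock activator gene bmal1a (-0.852), whose signal was 4.3 to 331.8, and sb:cb81 (-0.826). Fitted peaks were at ZT22.1 for thraa and ZT11.1 for bmal1a.

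For fkbp5 the most alike were ppdpfa (r = 0.866), the mitochondrial carrier gene slc25a33 (0.859), pik3r3a (0.847), the cone transducin gene gnat2 (0.842) and gbp (0.82). The 3 lowest were hbp1 (-0.861), rnf130 (-0.86) and peli1b (-0.848). ppdpfa and pik3r3a stood among the 5 most alike of both genes. These genes were picked by their likeness, so no test of their rhythm is given.

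The receptor gene itself stayed within a narrow range. nr3c1 had 620.4 to 979.3 over the 14 arrays, with an LD mean of 807.1 ± 113.2 and a DD mean of 777.8 ± 95.1 (SD, n = 7 per condition). Its fitted wave was 0.32 ± 0.16 (adjusted p = 0.465, limma), and LD minus DD was 0.05 ± 0.12 (adjusted p = 0.802). Its small variation ran opposite to that of the members: r was -0.781 with klf9 and -0.835 with fkbp5. The LD array of ZT22, highest for both members in that condition, was the lowest of all for nr3c1, at 620.4. Another 2 probe sets of nr3c1, with mean signals of 32.5 and 85, were not called in either comparison. Their waves were 0.10 ± 0.32 and 0.18 ± 0.17, with peaks at ZT0.56 and ZT5.2, against ZT10.9 for the probe set above. The opposite course is thus given for 1 probe set of the gene. nr3c2, the gene of the mineralocorticoid receptor, was not analysed here.

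Of the 17 listed genes of the receptor, its chaperones and steroid enzymes, 12 were on the array and 10 were tested. 1 was rhythmic, against the 4.91% of all genes: hsp90aa1.2, an Hsp90 gene, with 1.30 ± 0.29 and a peak at ZT4.66 (adjusted p = 0.0322, limma). Its signal ran from 2154.6 at ZT14 to 9259.9 at ZT6 in LD and from 2821.4 at ZT14 to 8820.5 at ZT6 in DD. On those ZT6 arrays klf9 was at 186.1 and 232.9, and fkbp5 at 486.7 and 413.9. The r of hsp90aa1.2 over the 14 arrays was 0.038 with klf9 and 0.505 with fkbp5. Omitting 1 array ended its call in 7 cases, in DD that of ZT2, ZT6 or ZT14 and in LD that of ZT6, ZT14, ZT18 or ZT2b (adjusted p = 0.0525 to 0.109), as it did with a robust variance prior (0.0512). A second probe set of the gene, with 1.56 ± 0.58, was not called (adjusted p = 0.275).

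fkbp4, the gene of FKBP52, an immunophilin that aids the receptor where FKBP51 restrains it, had its highest levels in the morning. In LD it had 1070.3 at ZT6 and 443.6 at ZT22, where fkbp5 was highest, and in DD 1277.7 at ZT2 and 663.3 at ZT10. Its fitted wave of 0.81 ± 0.21 with a peak at ZT4.12 was not called (adjusted p = 0.0715, range 0.0245 to 0.275 over the alternatives). hsd11b2, the gene of the enzyme that inactivates cortisol, had 225.8 to 572.8 in LD and 387.1 to 852 in DD and was not called for rhythm (0.52 ± 0.26, adjusted p = 0.477) or for LD against DD (-0.37 ± 0.19, adjusted p = 0.192).

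Against DD, 2 of these 10 genes were lower in LD and 0 higher, where 10.3% of all genes tested were lower and 9.91% higher. Both encode the Hsp90 cochaperone p23: ptges3a had a mean of 674.8 ± 284.5 in LD against 1028 ± 289.4 in DD (-0.63 ± 0.20, adjusted p = 0.0402), and ptges3b 214 ± 52.7 and 275.8 ± 36.6 (-0.36 ± 0.12, adjusted p = 0.0417; SD, n = 7 each, limma). Each was lower in LD in 6 of 7 collections. Neither call was firm: the count was 0 after centring each array on its median, with no filter, with no block, without both ZT2b arrays and without any single array of ZT14, ZT18, ZT22 or ZT2b or the DD array of ZT2.

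Of 46 other genes known as glucocorticoid targets in vertebrates, 33 were on the array and 20 passed the filter. 1 of the 20 was rhythmic, a share near the 4.91% of all genes, and their median fitted size was 0.36 against 0.34 over all genes tested. The rhythmic gene was arrdc2, an arrestin-domain gene, with 0.96 ± 0.19 and a peak at ZT21.4, close to that of klf9 (adjusted p = 0.0166, limma). In LD its signal was lowest at ZT10, 128.3, and highest at ZT2, 218.6, and in DD it was 131.9 at ZT10 and 395.7 at ZT18. Its r with klf9 was 0.672, the highest of the list, and an F-test on the 6 collection times instead of a wave ended its call (adjusted p = 0.121). The count was 2 without the DD array of ZT10 and 4 without that of ZT18.

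cebpd, a transcription factor gene of the acute stress response, came closest to fkbp5 in its pattern, with r = 0.795. Its signal had its DD low point at ZT10, 200.6, and its DD high point at ZT18, 884.6, and in LD it lay between 388.8 at ZT14 and 672.1 at ZT2b. The fitted wave of 1.11 ± 0.28 with a peak at ZT22.8 was not called (adjusted p = 0.0666, range 0.0350 to 0.248 over the alternatives), and it was 0.75 without the DD array of ZT10. socs3a, a cytokine feedback inhibitor, had 0.87 ± 0.27 with a peak at ZT23.7 (adjusted p = 0.151).

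The widely used target genes tsc22d3, sgk1 and dusp1 were not called rhythmic. tsc22d3, which encodes GILZ, had a fitted wave of 0.39 ± 0.16 (adjusted p = 0.331). sgk1, a kinase gene, had 0.20 ± 0.31 (adjusted p = 0.912) and its highest LD signal, 1110.5, at ZT2. dusp1, a phosphatase gene, had 0.45 ± 0.35 (adjusted p = 0.708). Over the 20 genes r with klf9 ran from -0.311 for irs2a to 0.672, with a median of 0.067, where the median over all genes was 0.014. With fkbp5 it ran from -0.586 for irs2a to 0.795 for cebpd, with a median of 0.09 against 0.018 over all genes. Beside arrdc2 and cebpd, high r was found for pfkfb3 (0.624 with klf9, 0.764 with fkbp5), socs3a (0.494, 0.735) and glulb (0.48, 0.688). None of these last genes was called rhythmic.

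Between light conditions 6 of the 20 targets were lower in LD and 0 higher, beside the 10.3% and 9.91% of all genes, and their median LD minus DD was -0.38 against -0.004485 over all genes tested. txnipa, the thioredoxin-interacting protein gene, had a mean of 521.5 ± 100.3 in LD against 946.7 ± 162 in DD (-0.85 ± 0.14, adjusted p = 0.00215). cisha, a cytokine-inducible SOCS gene, had 133.7 ± 55.3 and 226.1 ± 18.4 (-0.78 ± 0.16, adjusted p = 0.00609). Each was lower in LD in 7 of 7 collections.

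arrdc2 was also lower in LD, with 184.3 ± 34.9 against 283 ± 89.8 (-0.53 ± 0.12, adjusted p = 0.0101, limma, n = 7 each), in 7 of 7 collections, a call that ended with no block (adjusted p = 0.068). glula, a glutamine synthetase gene (-0.49 ± 0.13, adjusted p = 0.0168), and tsc22d3 (-0.49 ± 0.12, adjusted p = 0.0154) were lower in 6 of 7. socs3a (-0.46 ± 0.15, adjusted p = 0.0434) was lower in 7 of 7, and its call was lost under 13 of 22 alternatives. The count of 6 was 8 without the DD array of ZT10 and 3 without both ZT2b arrays, where txnipa, cisha and arrdc2 were still called.

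All 4 red cell markers were likewise lower in LD, beside 10.3% of all genes, with summed signals of 7085.3 to 12018 in LD and 9110.2 to 18214 in DD. Their differences were unequal, which the sums hide because hbaa1 makes up most of them. hbba2 had a mean of 135 in LD and 1523 in DD (-3.25 ± 0.26), and hbaa1 8224 and 11990 (-0.55 ± 0.15). For alas2 LD minus DD was -0.69 ± 0.17 and for slc4a1a -1.03 ± 0.19. Of the 4, 2 were called without both ZT2b arrays and 3 without any single array of ZT6 or ZT22. Their part in the lower levels of the targets in LD was not tested. Of 6 leukocyte markers 4 were tested and 1 was lower, with sums of 249.2 to 810.2 in LD and 365.9 to 1237.7 in DD, and mpx and csf1ra lay below the filter. Other markers were higher in LD, each in 7 of 7 collections: 1 of 5 pineal, 1 of 4 glial and 2 of 6 neuronal markers tested, beside 9.91% of all genes. The pineal one was the factor gene otx5 (1.09 ± 0.13, adjusted p = 0.000347, limma). The glial one was the glutamate transporter gene slc1a2b (0.69 ± 0.13, adjusted p = 0.00363). The glial marker fabp7a went the other way, with a mean of 1134 in LD and 1542 in DD (-0.41 ± 0.19), and was not called. The neuronal ones were the synaptic genes snap25a (0.82 ± 0.21, adjusted p = 0.0147) and snap25b (0.29 ± 0.10, adjusted p = 0.0463). Of the 6 neuronal markers tested, kctd12.1, of the habenula, was lower (-1.36 ± 0.14, adjusted p = 0.000145). The summed signals of the neuronal list were 3072.4 to 4246.1 in LD and 2647.6 to 3562.3 in DD, and those of the glial list 3357.3 to 5096.6 and 2634.2 to 4136.1. The part of these markers in the results was not tested. The marker sums add linear signals, so bright genes weigh most in them. Their r with klf9 was between -0.51 for vessels and 0.366 for neurons over the 8 lists. With fkbp5 it was between -0.471 for vessels and 0.397 for skin and connective tissue.

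**Figure D4:**
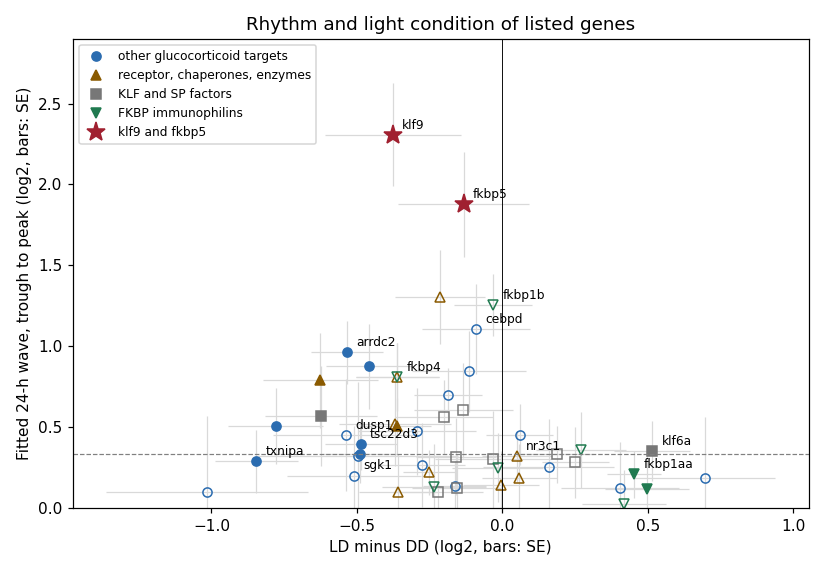
Fitted 24-h wave from trough to peak against LD minus DD (both log2, bars SE) for klf9 and fkbp5 (stars) and for the tested genes of 4 lists; filled symbols of the lists passed the LD against DD test, stars are filled with no test, and the dashed line is the median wave of all genes tested, 0.34. The members have the largest waves shown, 2.31 and 1.88, and 6 of the filled circles, other glucocorticoid targets, lie left of 0.

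Of 32 listed KLF and SP factors besides klf9, 17 were on the array, 10 were tested and 0 were rhythmic by limma (0 also at an unadjusted p under 0.05), where 4.91% of all genes were. Between conditions 1 of the 10 was higher in LD and 1 lower, shares near the 9.91% and 10.3% of all genes. klf6a was higher in LD, with 133.4 ± 21.6 against 89.5 ± 20.1 (0.51 ± 0.13, adjusted p = 0.0153), and klf2a, a factor that responds to blood flow in vessels, was lower, with 50.9 ± 14.4 against 91.3 ± 42.9 (-0.62 ± 0.19, adjusted p = 0.0351; SD, n = 7 each). The call of klf6a was lost without both ZT2b arrays (adjusted p = 0.0596). That of klf2a was lost under 11 of 22 alternatives, among them no block (0.0524). klf13 and klf15 were not analysed here.

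Of 18 listed FKBP immunophilins besides fkbp5, 9 were on the array and 8 tested, fkbp4 among them. 1 of the 8 was rhythmic, 2 were higher in LD and 0 lower, beside 4.91%, 9.91% and 10.3% of all genes. fkbp1b, which encodes a small immunophilin that binds calcium release channels in mammals, was the rhythmic one, with 1.25 ± 0.19 and a peak at ZT17.8 (adjusted p = 0.00235, limma). In LD it stood at 2116.3 at ZT14, 2068.8 at ZT18 and 2243.2 at ZT22, and at 757.9 to 1053.3 on the other 4 arrays, so it was high through the night rather than at its end. An F-test on the 6 collection times ended its call (adjusted p = 0.0506). fkbp1aa (0.45 ± 0.09, adjusted p = 0.00581) was higher in LD in 7 of 7 collections, and fkbp10b (0.50 ± 0.14, adjusted p = 0.0278) was also higher in 7 of 7, a call lost under 10 of 22 alternatives, among them without the DD array of ZT10 (adjusted p = 0.0519).

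**Figure D5:**
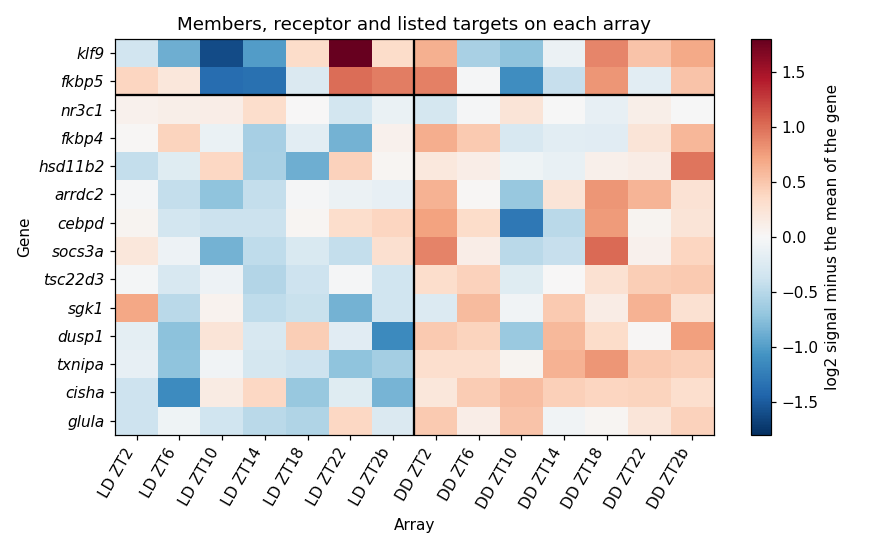
log2 signal minus the mean of the gene (colour scale, red high and blue low) on each LD and DD array, in order of collection, for klf9 and fkbp5 above the line and for the receptor gene nr3c1 and 11 listed genes below it. The members are blue at ZT10 in both conditions, nr3c1 is pale throughout, and txnipa is mostly blue in LD and red in DD.

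Genes of the stress axis were mostly dim in this tissue. Of 19 listed genes for its hormones, receptors and steroid enzymes, 8 were on the array and 1 passed the filter, the enzyme gene cyp11c1. It was called in neither comparison, with a fitted wave of 1.08 ± 0.34 and a peak at ZT0.281 (adjusted p = 0.179, limma). Its highest signal, 203.1, was on the LD array of ZT22, where klf9 and fkbp5 were also highest in LD. Those below the filter of a mean signal of 29.179 included the ACTH precursor gene pomca, the ACTH receptor gene mc2r and star, whose protein carries cholesterol into mitochondria. Low signals there limit what these arrays can show of those genes.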

How the data were processed

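RNA of pooled pineal glands was amplified in 2 rounds of in vitro transcription, about 1800-fold, and hybridised to Affymetrix zebrafish arrays, per the labels' protocols. The deposited values are linear MAS5 signals, 1 intensity for each probe set. The submitters' processing notes name GCOS and MAS5, tools whose versions are not given in the sources used here. Precision is limited by the number of arrays and by dim probe sets.

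Of 15502 probe sets that were not controls, 10795 had 1 symbol, 135 several and 4572 none. Symbols were checked through Entrez IDs for 10711, which changed 1, and 84 kept the platform's. A probe set with 1 empty cell was dropped. No genome build was named, so no coordinates are given, and promoter motifs were not searched because no sequence was used here. Signals were transformed as log2(signal + 14.9), the 25th percentile, and 9299 probe sets (6116 genes) with a mean above 29.179, the 40th percentile, were tested. The probe set of highest mean stood for its gene.

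Tests used lmFit and eBayes (with a trend) of limma 3.58.1 under R 4.3.3, with p-values adjusted by Benjamini-Hochberg across 9299 probe sets and a threshold of 0.05, and the code was tested on simulated data. The models had a 24-h cosine and sine with light condition, a wave per condition, and LD minus DD with the 6 times of day as a block, since LD and DD share their times of collection. Figures used matplotlib 3.10.9.

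The members and lists were chosen with earlier results of these data known. Named list genes were those called in the rhythm or the LD minus DD test, with 12 key genes where they were measured. The 5 genes of highest and 3 of lowest r for each member were also named. Outside this rule, the targets pfkfb3, glulb and irs2a were named for their high or low r with the members. Clock, marker and stress axis genes were named outside it too. Nothing in the labels says that pools of a condition came from separate cohorts, so p-values measure the spread between pools. That spread also holds any misfit of the 24-h wave and any change of LD minus DD with time of day. The alternatives were other pseudocounts, filters, normalisations, variance priors, designs and omitted arrays.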

Additional observations from a re-analysis of the deposited data

Results flagged for a closer look

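Within the 7 arrays of a condition, a signal was singled out when its gap to the nearest array was more than 0.568 of the whole range. Chance would give this in about 1 of 20 groups if the signals were draws from 1 normal distribution. They are linear signals from different times of day, so that rate need not hold here. Of 44 groups of arrays, 4 had such a signal. klf9 in LD had 1330.2 at ZT22, where the next array had 450 (gap 0.719 of the range), which is a description only, since klf9 was chosen on these signals. hsd11b2 in DD had 852 at ZT2b, with the next array at 491.5 (0.775). ptges3b in LD had 326.1 at ZT6, with the next at 227 (0.65). fkbp1aa in DD was low at ZT10, 1760.2 against 2218.2 on the next array (0.663), and that array stood apart in its spikes.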

How the results depend on the processing

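klf9 had a negative LD minus DD under all 20 alternatives, which are not all separate results. With time of day as a block, omitting the LD or the DD array of ZT6, ZT10, ZT14, ZT18 or ZT22 gave the same difference. Such pairs also enter the counts of lost LD minus DD calls. With single arrays left out the size of klf9 was 1.9 to 2.63, lowest without the LD array of ZT22, and that of fkbp5 1.72 to 2.22. LD minus DD of klf9 was -0.66 to -0.28 and that of fkbp5 -0.36 to 0.02, where it changed sign without either array of ZT14 or ZT18. The count of probe sets called for rhythm over both conditions, 452, was 282 without the LD array of ZT14 and up to 571 with others omitted, 260 without both ZT2b arrays and 140 when an F-test compared the 6 collection times; the cause was not tested. The count for LD minus DD, 1915, was 1374 to 2106 with single arrays omitted, 943 without both ZT2b arrays and 1669 with no replicate block of collection times, where the differences of klf9 and fkbp5 stayed at -0.38 and -0.13. Fewer arrays also mean fewer degrees of freedom. A difference of rhythm was called for 0 probe sets, 0 to 1 with single arrays omitted and 2 with a robust variance prior. No paired analysis by replicate number was possible because the labels give none; collections share only a time of day. The share of LD minus DD calls that were higher in LD was 48.7%, 56.4% after centring on the median and 51.8% after quantile normalisation. Other probe sets of the members could not be tried, since each has 1.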
